A study of Homo sapiens with 6 samples.

Results

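Raji, Namalwa and Ramos are established human lines of Burkitt lymphoma, an aggressive cancer of germinal centre B cells in which MYC is translocated to an immunoglobulin locus. The 2 arrays labelled Raji were compared with the 4 arrays labelled Namalwa or Ramos, 2 per line, so that the comparison holds 2 of 6 arrays on one side and every array of the series is used. The study set an empty control vector against a vector for the microRNA miR26a in each line. Each line therefore gave 1 empty and 1 miR26a array, and the construct was kept as a block when Raji was set against the other lines. Expression was induced with doxycycline, listed at 0.5 µg/ml and 72 h for all 6 samples, the empty ones included, so this treatment is shared by both sides. Total RNA was read on Affymetrix U133 Plus arrays as log2 RMA levels, in which 1 unit is a 2-fold difference in brightness.

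Raji and Namalwa carry Epstein-Barr virus (EBV) and Ramos does not, a fact known of these lines and not taken from the labels. In cells with the full latency program of the virus, known as latency III, the viral membrane protein LMP1 acts like a permanently active CD40 receptor, which drives NF-kB. Burkitt lymphoma cells in patients usually run a narrower viral program and keep a germinal centre pattern, with BCL6 and CD10 (MME) on and NF-kB target genes low. The array carries probes for human RNAs, and the viral program of each line was not measured here.

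The 3 lines bound the precision of the comparison. Raji is 1 line, the other 4 arrays are 2 lines of 2 arrays, and no source used here says that the arrays of a line came from separate cultures. The p-values therefore measure the spread between these 6 arrays, and a gene past the threshold separates this line from 2 others, with no statement about Burkitt lymphoma cells at large. A two-sided exact permutation test of 2 against 4 arrays, taken as double the smaller tail, cannot go below p = 0.133, with 15 splits, and the 3 lines can be split into 1 and 2 in 3 ways. Array medians lay between 4.36 and 4.44, and the Namalwa empty array had the largest gap between the 3′ and 5′ control probe sets of ACTB, at 3.58 log2 against 1.80 to 1.98 on the other 5 arrays. Pearson correlations across the 12012 genes tested, which are not independent replicates, were 0.8581 to 0.8786 for a Raji array with any array of the other lines, 0.9661 to 0.9714 between Namalwa and Ramos and 0.9878 to 0.9928 within a line.

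The labels name Burkitt lymphoma, a cancer of B cells, and B-cell markers were present on every array. All 7 measured B-cell markers lay above 4.42, the median level of all probe sets and the level minimum used here, on all 6 arrays. Their mean was 10.03 and 9.96 on the Raji arrays, 9.28 and 9.32 on the Namalwa arrays and 8.95 and 8.91 on the Ramos arrays. Of 9 measured T and NK cell markers, 7 were below the minimum on each array, and of 8 monocyte and granulocyte markers 7 were below it in Raji and 8 in the other lines. CSF1R, the receptor of a macrophage growth factor, was nevertheless higher in Raji by 0.64, close to the minimum at 4.97 and 4.79. The beta-globin HBB was higher by 0.79, and the fibroblast matrix genes DCN and COL1A1 by 0.82 and 0.45, all called by limma. The part of these markers in the results was not tested. RNA came from bulk cultures, so a lower share of cells that hold an RNA cannot be told apart from less of it per cell.

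A gene was called where limma's adjusted p was under 0.05 over all 12012 genes tested. In Raji 1959 genes were higher (16.3% of those tested) and 2125 lower (17.7%), in all 34%. Of the differences with at least 1 log2, 675 were higher (5.62%) and 912 lower (7.59%). At 2 log2 the shares were 1.12% and 2.67%, at 3 log2 0.458% (55 genes) and 1.52% (183 genes), and at 4 log2 0.15% and 0.783%. To be tested, a gene had to reach a minimum by its mean over all 6 arrays. A gene high on 4 arrays reaches it more easily than a gene high on 2. TOX, for example, was 5.31 higher in Raji and was not tested. These shares therefore do not show on which side large differences are more common. The median absolute difference was 0.34 between Raji and the rest and 0.18 between Namalwa and Ramos. Both Raji arrays lay above all 4 others in 3709 genes (30.9%) and below them in 3131 (26.1%). Against Namalwa alone 22.8% of genes were higher in Raji and 23.4% lower, and against Ramos alone 26.1% and 24.4%; these comparisons share the Raji arrays. Of the called genes 4039 were also past the threshold against each line. The fits against each line use the same arrays and leave the difference between Namalwa and Ramos out of the spread. A called gene therefore passes there easily, and this overlap is no independent check. In 523 called genes Namalwa and Ramos differed from each other as well, which is 12.8% of the called genes and 29.7% of the 1761 (14.7% of those tested) that differed between those lines. The number called fell to 1065 without the Raji empty array and to 1547 without the Raji miR26a array. In such a fit the lone Raji array is assumed to vary like the others, and most counts given below for gene groups fell by over 1.5 times with it. Whether the difference depends on the construct could not be judged, with 1 Raji array per construct (limma interaction: 0 genes past the threshold, 152 at an unadjusted p under 0.05, smallest adjusted p 1).

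**Figure D1:**
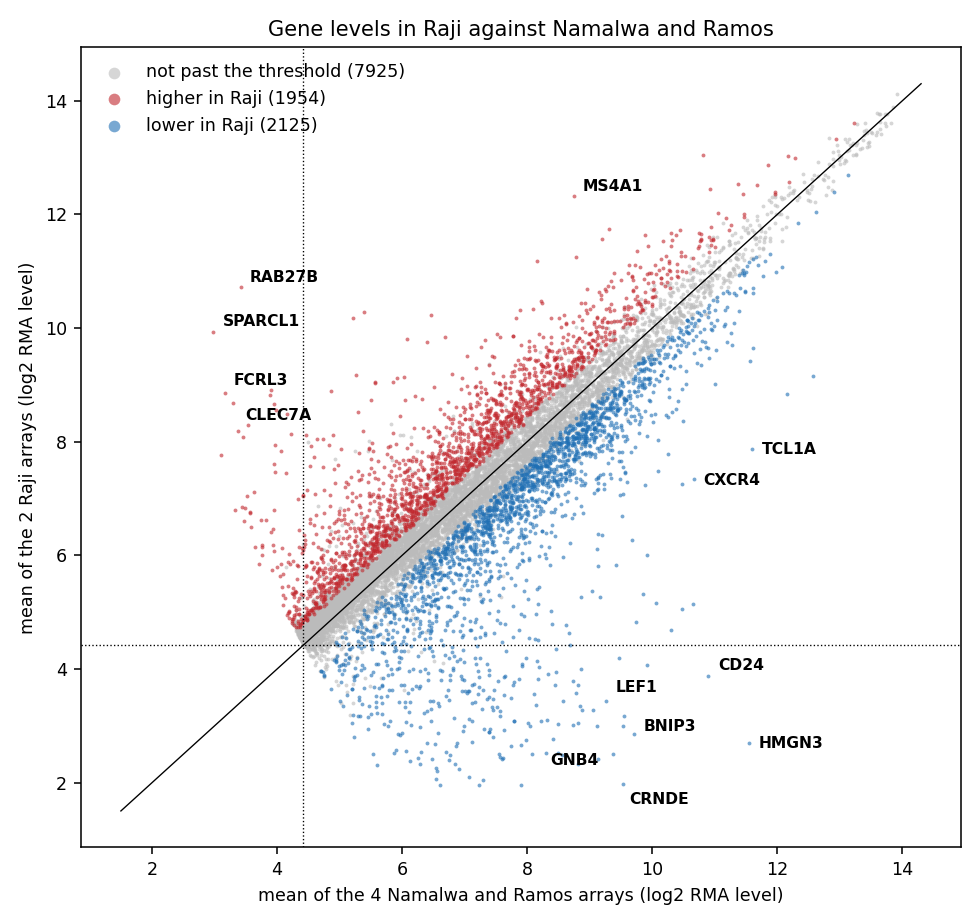
Mean log2 RMA level of each tested gene in the 2 Raji arrays (vertical) against the 4 Namalwa and Ramos arrays (horizontal); red and blue points are genes called higher and lower in Raji, grey points are not past the threshold, and dotted lines mark the level minimum of 4.42. Y-linked genes and XIST, 8 of those tested, are not drawn. HMGN3, CRNDE and CD24 lie far below the diagonal, RAB27B and SPARCL1 far above it.

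The genes that lay furthest from the other lines were near background on one side, so that their difference in log2 is no exact size. A gene was counted as on in Raji only where both Raji arrays lay at least 2 log2 above the level minimum and the other 4 below it, and as off in Raji only in the reverse case. By this rule 31 of 19740 genes outside the Y chromosome were on in Raji only (0.157%) and 116 off in Raji only (0.588%). Each gene was read by its brightest probe set over all 6 arrays, 4 of them Namalwa or Ramos. This favours probe sets that are bright in those lines, so the 2 counts do not show which state is more common. RAB27B, a GTPase that docks secretory vesicles, read 10.83 and 10.61 on the Raji arrays and 3.19 to 3.64 on the other 4. SPARCL1, a secreted matricellular glycoprotein, read 9.89 and 9.98 against 2.83 to 3.14. FCRL3, an Fc receptor-like protein of B cells, read 8.81 and 8.90 against 3.07 to 3.26. These genes were picked for the widest gaps between the 2 groups of arrays, each above 5 log2 units. Their promoter windows are printed to show the start regions of the genes that were on only in Raji; each is the 250 bases before the transcription start in RefSeq (GRCh38.p14), 5′ to 3′ on the gene's strand, and capitals mark CG dinucleotides. The windows lie at chr18:54717607-54717856 (plus strand), chr4:87529377-87529626 (minus) and chr1:157700770-157701019 (minus).
RAB27B: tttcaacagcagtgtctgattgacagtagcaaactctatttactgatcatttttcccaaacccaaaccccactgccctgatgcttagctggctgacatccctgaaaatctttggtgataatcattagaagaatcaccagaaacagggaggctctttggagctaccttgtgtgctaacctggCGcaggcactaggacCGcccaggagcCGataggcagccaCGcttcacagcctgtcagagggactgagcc
SPARCL1: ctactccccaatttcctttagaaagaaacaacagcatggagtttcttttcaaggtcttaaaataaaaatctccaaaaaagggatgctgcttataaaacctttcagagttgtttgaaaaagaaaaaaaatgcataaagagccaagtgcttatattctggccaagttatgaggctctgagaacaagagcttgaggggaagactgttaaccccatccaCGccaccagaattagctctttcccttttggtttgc
FCRL3: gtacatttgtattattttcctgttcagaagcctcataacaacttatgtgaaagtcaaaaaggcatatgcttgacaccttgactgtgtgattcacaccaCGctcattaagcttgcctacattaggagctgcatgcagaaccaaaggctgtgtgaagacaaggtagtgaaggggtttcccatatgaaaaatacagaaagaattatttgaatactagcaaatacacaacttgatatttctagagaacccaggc

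These windows hold 4, 1 and 1 CG dinucleotides. On the opposite side, HMGN3, a nucleosome-binding protein, read 2.40 and 3.0 in Raji and 11.46 to 11.64 in the other lines. The long noncoding RNA CRNDE read 2.06 and 1.87 against 9.32 to 9.62. CD24, a surface glycoprotein of early and germinal centre B cells, read 3.91 and 3.85 against 10.56 to 11.18. Of its other 5 probe sets, 4 were at -5.75 to -7.54, and 1 read 5.43 on both Raji arrays, above the minimum, with a difference of -2.56. In the brightest probe sets the lowest other array thus exceeded the higher Raji array by several log2 units in each case. These genes too were picked for the widest gaps. The corresponding windows are at chr6:79234683-79234932, chr16:54928887-54929136 and chr6:106975628-106975877, all on the minus strand, and are shown in the same way for comparison.
HMGN3: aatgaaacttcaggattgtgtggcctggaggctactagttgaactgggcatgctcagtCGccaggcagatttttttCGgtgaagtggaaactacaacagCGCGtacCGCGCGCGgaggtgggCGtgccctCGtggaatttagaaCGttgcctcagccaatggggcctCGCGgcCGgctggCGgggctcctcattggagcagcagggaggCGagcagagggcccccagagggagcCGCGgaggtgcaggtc
CRNDE: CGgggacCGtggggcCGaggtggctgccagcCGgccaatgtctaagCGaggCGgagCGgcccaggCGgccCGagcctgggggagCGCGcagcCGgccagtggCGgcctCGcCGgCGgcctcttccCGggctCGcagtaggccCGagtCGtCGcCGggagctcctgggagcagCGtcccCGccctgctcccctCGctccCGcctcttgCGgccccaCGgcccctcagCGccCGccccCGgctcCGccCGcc
CD24: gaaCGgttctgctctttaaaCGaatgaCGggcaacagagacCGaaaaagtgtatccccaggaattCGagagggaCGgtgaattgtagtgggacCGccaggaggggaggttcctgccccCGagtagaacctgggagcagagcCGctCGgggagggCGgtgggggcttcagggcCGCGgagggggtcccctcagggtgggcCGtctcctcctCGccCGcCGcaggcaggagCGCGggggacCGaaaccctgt

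The windows of HMGN3, CRNDE and CD24 hold 18, 33 and 20 CG dinucleotides. Over the 94 of 116 genes off in Raji only that have a window (81%), 73.4% were CpG-rich, meaning a GC content of at least 50% and an observed over expected CpG ratio of at least 0.6. The same share was 77.4% over all tested genes with a window, and the median CpG ratio was 0.81 against 0.83. The 3 lower genes printed here are thus CpG-rich like most tested genes. For the genes on in Raji only, 64.5% had a window, too few for this check, which is void for them. A match or a count in these windows describes the reference sequence and not the DNA of the lines, whose methylation was not measured.

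**Figure D2:**
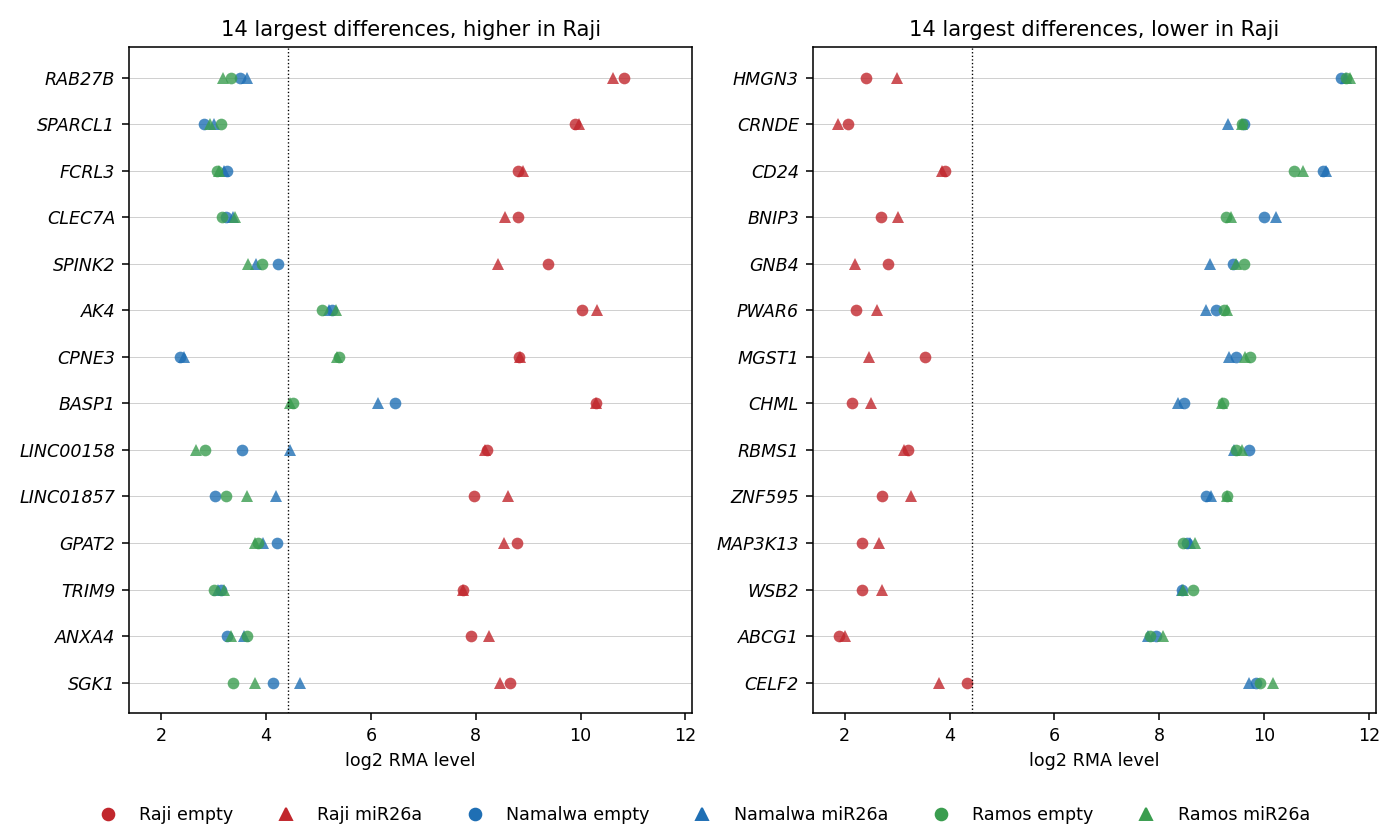
Log2 RMA level on each of the 6 arrays for the 14 genes with the largest difference in each direction (left, higher in Raji; right, lower); circles are empty and triangles miR26a arrays, colours are lines, and the dotted line marks the level minimum of 4.42. The genes were drawn from those tested and called in which both Raji arrays lie beyond the other 4. BASP1 and CPNE3 also differ between Namalwa and Ramos.

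Further genes were far higher in Raji. BASP1, a membrane-bound signalling protein, read 10.29 on both Raji arrays, 6.45 and 6.14 in Namalwa and 4.52 and 4.46 in Ramos. Its difference was 4.89 (SE 0.64, limma adjusted p = 0.00253), and Namalwa lay between the other 2 lines. CPNE3, a calcium-dependent phospholipid-binding protein, read 8.82 and 8.84 in Raji against 2.36 and 2.43 in Namalwa and 5.39 and 5.35 in Ramos. ANXA4, an annexin, was higher by 4.62, the stress- and hormone-responsive kinase SGK1 by 4.58, and GPAT2, an enzyme of glycerolipid synthesis, by 4.71. TOX, an HMG-box factor best known from T cells, was below the minimum on the other 4 arrays, at 2.20 to 2.59, and read 7.79 and 7.61 in Raji. The embryonic globin HBE1 read 6.64 and 6.97 in Raji and 3.12 to 3.66 elsewhere.

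Further genes were far lower in Raji. BNIP3, which marks mitochondria for removal under hypoxia, read 2.68 and 3.02 in Raji, 10.00 and 10.22 in Namalwa and 9.27 and 9.36 in Ramos. The microsomal glutathione transferase MGST1 read 3.54 and 2.46 against 9.33 to 9.72. RBMS1, an RNA- and DNA-binding protein, read 3.21 and 3.12 against 9.42 to 9.71. The differences of these 3 genes were -6.86, -6.54 and -6.38. GNB4 was at -6.86, MAP3K13 at -6.07, WSB2 at -5.97 and the splicing regulator CELF2 at -5.84. PWAR6, a transcript of the imprinted Prader-Willi region, was at -6.71. IGF2BP1 and IGF2BP2, RNA-binding proteins of early development, were both off in Raji only, at -3.82 and -4.46. The same held for JAG1 (-3.74), a Notch ligand, for TEAD1 (-4.37), which binds YAP, and for SMAD1 (-4.87), a carrier of BMP signals.

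Other probe sets of the same genes gave a check within the arrays. The 2220 called genes with further probe sets above the minimum had 4043 of them, and 89.3% moved the same way. An opposite call was made by 46 probe sets in 40 genes. For the genes off in Raji only, 106 of 109 further probe sets moved the same way (97.2%). A further probe set was kept where its mean over all arrays reached the minimum. For a gene near background in Raji, a probe set reaches it mainly through high levels in Namalwa and Ramos. The filter thus favours a lower level in Raji, and the 97.2% is no independent check of these genes.

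Among genes bright on every array, MS4A1, which encodes the B-cell antigen CD20, had the largest excess in Raji. It read 12.27 and 12.37 in Raji, 9.55 and 10.21 in Namalwa and 7.96 and 7.24 in Ramos. The mean was 12.32 ± 0.07 (SD, n = 2) against 8.74 ± 1.38 (SD, n = 4), an 11.9-fold difference (limma adjusted p = 0.0201), and Namalwa again lay between. GRHPR, a reductase of glyoxylate, was 8.06-fold higher (adjusted p = 0.000135), the actin regulator CYFIP2 5.54-fold and GCH1, the first enzyme of tetrahydrobiopterin synthesis, 5.39-fold. RGS13, which damps chemokine receptor signals in germinal centre B cells, was 5.39-fold higher at 11.65 and 11.83 against 8.88 to 9.67.

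The bright genes that were lower in Raji included several of B-cell biology. TCL1A, a coactivator of the kinase AKT, read 8.01 and 7.75 in Raji, 11.04 and 11.20 in Namalwa and 12.07 and 12.09 in Ramos. It was 13.2-fold lower in Raji (difference -3.72, SE 0.36, limma adjusted p = 0.000842). CXCR4, the chemokine receptor that holds B cells in the germinal centre dark zone, read 7.38 and 7.29 against 10.46 to 10.76 on the other arrays, a 10.1-fold lower level (adjusted p = 2.57e-05). For both genes the arrays did not overlap, which was a condition of their selection. PLAC8 was 9.32-fold lower, the nuclear factor AFF3 7.05-fold, RCSD1 6.28-fold and the corepressor IRF2BP2 6.10-fold.

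Genes of the NF-kB pathway and the EBV latency III pattern were mostly higher in Raji. Of 35 tested, 23 were higher and 3 lower (65.7% and 8.57%, against 16.3% and 17.7% of all genes), with a median difference of 1.09 against 0.06. The count of higher genes was 10 without the Raji empty array and 12 without the Raji miR26a array. Among the pathway's own parts, the transcription factor subunit REL was higher by 1.27 and NFKB2 by 1.68. NFKB1, RELA and RELB did not pass, at -0.09, 0.27 and 0.24. The inhibitors NFKBIA and NFKBIE, themselves induced by NF-kB, were higher by 1.64 and 1.01, and the adaptor TRAF1 by 2.10. CD40, the receptor upstream, read 9.02 and 8.94 in Raji and 6.91 to 7.30 elsewhere (difference 1.94, SE 0.15, limma adjusted p = 0.000359).

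Several targets of the pathway were higher as well. BCL2A1, an inhibitor of cell death, read 8.40 and 8.59 in Raji, 4.96 and 6.15 in Namalwa and 2.80 and 2.74 in Ramos (difference 4.33, SE 1.00, limma adjusted p = 0.0194). FAS, a death receptor, read 9.19 and 9.15 against 4.99 to 5.37. EBI3, a cytokine subunit first found in EBV-infected B cells, read 7.88 and 8.38 against 3.9 to 4.76. In FAS and EBI3 the 4 other arrays lay close together, whereas in BCL2A1 Namalwa lay above Ramos. The costimulatory ligand CD86 and the activation marker CD83 were higher by 2.45 and 2.48, the adhesion molecules ICAM1 and CD58 by 1.97 and 1.57, and the chemokine CCL22 by 1.65. Going the other way, IRF4, a plasma cell and latency factor, read 4.82 and 4.87 in Raji and 6.87 to 7.33 elsewhere, and the chemokine CCL4 was at -2.76 and TNFAIP8 at -0.96. TNFAIP3, the A20 inhibitor, was at 0.87 and did not pass. Namalwa was called above Ramos in 9 of the 35 genes and below it in 0. Over all tested genes 14.7% differed between these lines, counted in either direction.

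The kappaB motif was searched by its consensus on both strands of the promoter windows, 250 bases before to 50 after each start. It was present in 4 of the 19 higher genes with a window (21.1%; REL, NFKBIA, CCL22 and LTB) and in 6.73% of all tested windows. The list was written as genes of this pathway, and its members that were lower or not called were not searched. The share therefore describes the list and does not bear on the difference of Raji. A match is a string of letters and not a bound site.

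**Figure D3:**
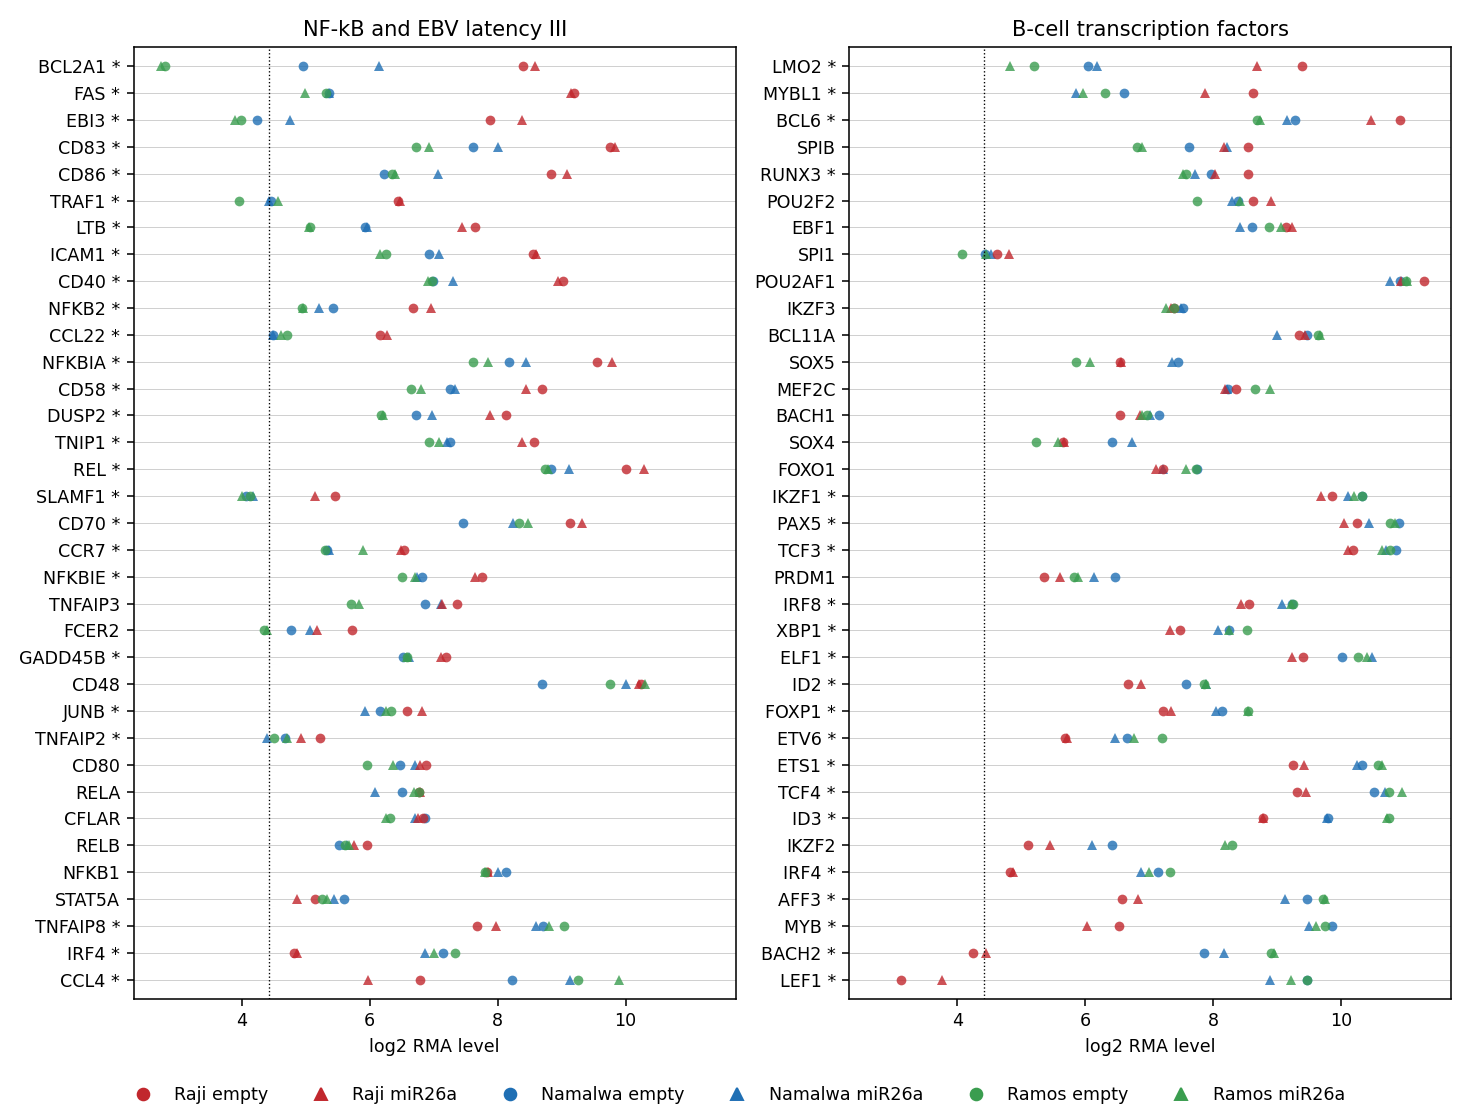
Log2 RMA level on each array for the tested genes of the NF-kB and latency III list (left) and of the B-cell transcription factor list (right), ordered by the difference; an asterisk marks genes called, symbols are as for the largest differences, and the dotted line is the level minimum of 4.42. Raji lies to the right in most NF-kB rows and to the left in the lower rows of the transcription factors, down to LEF1.

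MHC class II genes, which present peptides to helper T cells, were higher in Raji for 9 of 13 tested and lower for 2. These are 69.2% and 15.4%, against 16.3% and 17.7% of all genes, with a median of 1.07. These counts hold HLA-DQB1 as higher and HLA-DQA1 as lower by their brightest probe sets, and by the mean of all probe sets they were 7 and 1. The higher count was 1 without the Raji empty array and 7 without the miR26a array. HLA-DOB, which tunes peptide loading, read 7.36 and 7.23 in Raji and 4.77 to 5.43 elsewhere (difference 2.19, limma adjusted p = 0.000401). HLA-DPB1 was higher by 1.57, HLA-DRB1 by 1.5, and the loading factors HLA-DMB and HLA-DMA by 1.51 and 1.47. The master regulator CIITA was higher by 0.50. HLA-DRA, at 0.71, and HLA-DPA1, at 0.51, did not pass. CTSS, a protease of the invariant chain, was at -0.81. It and HLA-DQA1 were the 2 lower genes, and 1 was lower when either Raji array was left out.

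The HLA-DQ genes gave opposite readings within the same arrays. The brightest probe set of HLA-DQA1 read 3.49 and 3.77 in Raji and 6.42 to 8.65 elsewhere, a difference of -3.67. Another read 10.16 and 9.82 in Raji and 3.50 to 3.88 elsewhere, a difference of 6.25. For HLA-DQB1 the probe sets ran from -3.15 to 1.99. No direction is therefore given for either gene, and the cause was not tested. Among MHC class I presentation genes 17.6% were higher and 11.8% lower, against 16.3% and 17.7% of all genes. Of 17 MHC class I presentation genes 3 were higher (0 without the Raji empty array, 1 without the Raji miR26a array and 5 without the Namalwa miR26a array) and 2 lower, with a median of 0.30. Those lower were the peptide trimmer ERAP2 at -2.77 and NLRC5, the class I activator, at -1.5, while HLA-B, HLA-C and B2M were at -0.04, 0.10 and -0.43 and did not pass.

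Light chain genes were read beside the chain known for each line. Raji is known to make kappa chains, Namalwa and Ramos lambda chains. IGLC1, a lambda constant gene, read 9.39 and 8.92 in Raji and 12.19 to 12.85 elsewhere, 10.7-fold lower (limma adjusted p = 0.00021), and IGLV1-44 was 9.97-fold lower. A further bright probe set of IGLC1 was at -3.67, whereas dim ones were at -0.06, 0.14 and 0.50, the last called higher (adjusted p = 0.0364). The brightest IGKC probe set did not pass at 0.30, whereas a dimmer one read 7.45 and 7.47 in Raji and 4.0 to 4.15 elsewhere, a difference of 3.36. A further IGKC probe set was lower in Raji at -0.69 (adjusted p = 0.0154) and another was at 0.31 and not called, so the gene's direction depends on the probe set. IGHM was higher by 2.23 in its brightest probe set and at -2.42 in another, so its direction is not settled. VPREB1, the surrogate light chain of precursor B cells, was off in Raji only at 2.89 and 2.62 against 7.76 to 8.24, while its relative VPREB3 was higher by 2.09. Of the immunoglobulin chain list 20% were higher and 20% lower, near the 16.3% and 17.7% of all genes. By the brightest probe sets, 2 of the 10 tested genes of this list were higher (IGHM, with its conflict, and VPREB3; 1 when either Raji array was left out) and 2 lower.

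B-cell surface antigens moved in both directions, with 10 of 32 higher and 8 lower (31.2% and 25%, against 16.3% and 17.7% of all genes). The counts were 3 and 4 without the Raji empty array and 5 and 5 without the miR26a array. Next to MS4A1, the complement receptor CR2 (CD21), which is the entry receptor of EBV, read 8.13 and 7.72 in Raji, 5.25 and 5.02 in Namalwa and 3.9 and 4.01 in Ramos. Its difference was 3.38 (SE 0.43, limma adjusted p = 0.00236), with the 3 lines apart from each other. The inhibitory receptor CD22 was higher by 1.96 and the tetraspanin CD82 by 1.56. Of those lower, the tetraspanin CD9 read 3.86 and 3.51 in Raji against 6.67 to 8.02. MME (CD10), a germinal centre marker, was at -1.77, CD72 at -1.47, CD69 at -1.90 and TNFRSF17 (BCMA), a survival receptor of plasma cells, at -1.70. CD38 did not pass at -1.0, nor did CD27 at 1.37, CD79A at 0.34 and CD79B at 0.25.

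Fc receptor-like genes split within the family. FCRL2 read 7.97 and 8.40 in Raji and 5.34 to 5.41 elsewhere (difference 2.81, SE 0.14, limma adjusted p = 6.59e-05), and FCRLB was higher by 1.54. FCRL5 was at -1.82, the intracellular FCRLA at -1.33 and the inhibitory receptor FCGR2B at -0.50. The shares called in this list were 27.3% higher and 36.4% lower, against 16.3% and 17.7% of all genes. In all 3 of 11 were higher and 4 lower, the latter count being 1 without the Namalwa empty array, 1 without the Raji empty array and 1 without the Raji miR26a array.

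Transcription factors of B cells were lower in Raji more often than higher. Of 35 tested, 17 were lower and 4 higher (48.6% and 11.4%, against 17.7% and 16.3% of all genes), with a median of -0.59. When either Raji array was left out 8 were lower, and 1 was higher without the Raji empty array. LEF1, a partner of beta-catenin in early B cells, read 3.12 and 3.76 in Raji and 8.89 to 9.47 elsewhere, a difference of -5.82. BACH2, which holds back plasma cell differentiation, read 4.25 and 4.45 against 7.85 to 8.95, and MYB, a factor of progenitors, 6.52 and 6.03 against 9.50 to 9.85. In each of the 3 the Raji arrays were the lowest by over 2 log2 units. ID3 and TCF3, an inhibitor and its E-protein target, both altered by mutation in many Burkitt tumours, were at -1.48 and -0.60. TCF4 and ETS1 were at -1.34 and -1.11.

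The 4 tested factors that were higher in Raji belong to the germinal centre or to activated lymphocytes. TOX, 1 of 4 list members below the level minimum by their mean, was not tested and is not in these counts. It read 7.79 and 7.61 in Raji and 2.20 to 2.59 elsewhere. LMO2 read 9.39 and 8.69 in Raji, 6.04 and 6.19 in Namalwa and 5.19 and 4.82 in Ramos. BCL6, the repressor that defines germinal centre B cells, read 10.92 and 10.46 against 8.68 to 9.27 (difference 1.74, SE 0.22, limma adjusted p = 0.00245). MYBL1 was higher by 2.06 and RUNX3 by 0.59. The lineage factors EBF1, POU2AF1 and SPIB did not pass, at 0.45, 0.18 and 0.98, and PAX5 was slightly lower at -0.59. PRDM1, the plasma cell factor, was at -0.60 and did not pass.

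Of 32 B-cell receptor signalling genes 6 were higher and 8 lower, or 18.8% and 25%, near the 16.3% and 17.7% of all genes, with a median of 0.02. The counts were 0 and 4 without the Raji empty array and 3 and 4 without the miR26a array, and 9 genes were higher without the Namalwa miR26a array. The Src-family kinases FGR and LYN were higher by 2.12 and 1.01, while BLK was at -0.66 and LCK and FYN did not pass, at 0.48 and -0.20. The adaptor BLNK was at -1.30, the adaptor GAB1 at -2.09, and the calcium-regulated factors NFATC1 and NFATC2 at -1.66 and -1.56. SYK and BTK did not pass, at -0.11 and 0.16.

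Genes of sterol and fatty acid synthesis were higher in Raji for 18 of 26 tested and lower for 0 (0 also at every left-out array), with a median of 0.99. The higher count was 12 without the Raji empty array and 10 without the miR26a array. The share called higher was 69.2%, against 16.3% of all genes, and 17.7% of all genes were lower. DHCR7, which makes cholesterol in its last step, read 9.58 and 9.42 in Raji, 7.19 and 7.35 in Namalwa and 6.81 and 6.78 in Ramos. It was 5.55-fold higher (limma adjusted p = 0.000493). TM7SF2, LSS and SC5D, enzymes after squalene, were higher by 1.81, 1.76 and 1.59, and HMGCS1, at the start of the mevalonate branch, by 1.37. For fatty acids, FASN was higher by 1.31, ACLY by 1.08 and SCD by 0.99. Of the regulators, SREBF1 was higher by 1.04 and the feedback protein INSIG1 by 1.22, and SREBF2 did not pass at 0.28. FDPS, IDI1 and MVK of the mevalonate branch did not pass, at 0.51, 0.22 and 0.21.

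The letters CCAAT, searched on both strands, occurred in the windows of 14 of the 15 higher sterol genes that have one (93.3%) and in 36.9% of all tested windows. The members of the list that were not called were not searched, so this share does not bear on the difference of Raji. The sterol element searched as TCACNCCAC occurred in 0 of the 15 and in 1.16% of all tested windows. A string this rare is likely to be missing from any 15 windows, so the 0 does not show that these genes lack the element. Cholesterol export genes, chosen after their values were seen, read the other way. ABCA1, which loads cholesterol on lipoproteins, read 3.77 and 2.96 in Raji and 7.82 to 8.56 elsewhere (difference -4.78). ABCG1, its partner in export, read 1.90 and 2.01 against 7.78 to 8.08 (difference -5.95, limma adjusted p = 5.49e-06). Both were off in Raji only. PLIN2, a coat protein of lipid droplets, was on in Raji only, at 7.22 and 7.01 against 3.18 to 4.0.

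Regulators of cell death of the BCL2 family were higher for 7 of 19 and lower for 5. These are 36.8% and 26.3%, against 16.3% and 17.7% of all genes. The counts were 1 and 3 when either Raji array was left out. Protectors were found on both sides. BCL2A1, MCL1 and BCL2L1 were higher by 4.33, 0.74 and 0.80, while BCL2 itself read 4.55 and 4.56 in Raji and 5.65 to 6.37 elsewhere (difference -1.48, limma adjusted p = 0.00518). Of the BH3-only proteins, which trigger death, BCL2L11 (BIM) was higher by 2.11 and BAD by 1.73, and HRK, BIK and PMAIP1 (NOXA) were at -3.41, -1.48 and -0.71. BAX and BID did not pass, at 0.31 and 0.42. The death receptor TNFRSF10B was higher by 1.66, CASP2 was at -1.06, and CASP8 did not pass at 0.14.

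Targets of p53 were split as well, with 8 of 20 higher and 6 lower (5 and 2 without the Raji empty array, 5 and 3 without the miR26a array). In all 40% of this list were higher and 30% lower, against 16.3% and 17.7% of all genes. CDKN1A (p21), which halts the cell cycle, read 5.31 and 5.82 in Raji and 7.65 to 8.23 elsewhere (difference -2.41, SE 0.12, limma adjusted p = 6.47e-05), and GADD45A was at -1.82. DDB2, a sensor of DNA damage, was higher by 2.20 and CCNG1 by 1.76. Of the p53 regulators, MDM2 and MDM4 were at -0.72 and -1.0. Among the other cell cycle inhibitors, CDKN1B (p27) was higher by 1.70, and CDKN2A and RB1 were at -1.25 and -1.19.

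Chromatin proteins of the HMG families were lower for 6 of 12 and higher for 1 (50% and 8.33%, against 17.7% and 16.3% of all genes). The counts were 3 lower and 0 higher without the Raji empty array and 4 and 1 without the miR26a array. Besides HMGN3, HMGN5 was far lower, at 1.99 and 3.32 in Raji against 7.23 to 8.62, while HMGN1 and HMGN2, members of the same nucleosome-binding family, did not pass at 0.14 and -0.05. HMGB2 and HMGB1 were at -0.98 and -0.44.

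DNA methylation enzymes and readers were lower in Raji for 10 of 15 tested and higher for 2, with a median of -0.78. These are 66.7% and 13.3%, against 17.7% and 16.3% of all genes. The counts were 4 lower and 0 higher without the Raji empty array, 7 and 1 without the Raji miR26a array and 10 and 1 without the Ramos miR26a array. Of the enzymes that oxidise methylcytosine, TET2 read 4.74 and 4.46 in Raji and 6.65 to 7.31 elsewhere, a difference of -2.38 (limma adjusted p = 0.000884). TET1 was at -2.24, reading 3.71 and 3.33 in Raji, below the minimum, and TET3 at -0.71. The de novo enzyme DNMT3A read 3.99 and 4.05 against 5.87 to 6.05, while DNMT3B did not pass at -0.50. UHRF1, which guides maintenance methylation, was at -1.65 and its relative UHRF2 at -1.97, whereas the maintenance enzyme DNMT1 was higher by 0.74. Methylation of DNA was not measured.

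EZH2, the Polycomb methyltransferase at the centre of the study, was lower in Raji than in the other lines whatever the construct. It read 8.01 in the Raji empty array and 7.70 in the Raji miR26a array, 9.63 and 8.87 in Namalwa and 9.77 and 9.16 in Ramos. The difference was -1.5 (SE 0.15, limma adjusted p = 0.001), and the lowest other array, Namalwa with miR26a, was above both Raji arrays. Its partner SUZ12 was at -0.60, the accessory subunit MTF2 at -1.05 and EED, the third core subunit, higher by 0.42. PCGF2 of the other Polycomb complex was at -2.79. Of the Polycomb genes tested 28% were lower and 8% higher, against 17.7% and 16.3% of all genes. In all 7 of 25 Polycomb genes were lower (4 when either Raji array was left out) and 2 higher. The higher count was 0 without either Raji array or the Ramos miR26a array and 1 without either Namalwa array.

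The small RNA machinery, through which miR26a acts, was lower for 7 of 15 genes and higher for 2. These are 46.7% and 13.3%, against 17.7% and 16.3% of all genes. The counts were 3 lower and 0 higher without the Raji empty array, 5 and 0 without the Raji miR26a array and 6 and 1 without the Ramos miR26a array. LIN28B, which blocks maturation of let-7 microRNAs, read 5.6 and 6.40 in Raji and 9.74 to 10.13 elsewhere (difference -3.92, SE 0.24, limma adjusted p = 0.000161). DICER1, which cuts microRNA precursors, read 9.68 and 9.64 against 11.42 to 11.96, and DROSHA, which acts before it, was at -0.71. Among the Argonaute proteins, AGO4 was at -2.25 and AGO2 at -0.58, AGO1 was higher by 0.59 and AGO3 did not pass at -0.54. Mature microRNAs were not measured on these arrays.

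Interferon-stimulated genes were lower in Raji for 13 of 29 and higher for 4, with a median of -0.56. These are 44.8% and 13.8%, against 17.7% and 16.3% of all genes. The counts were 5 lower and 0 higher without the Raji empty array and 6 and 1 without the miR26a array. SAMD9, an antiviral factor, read 3.0 and 4.63 in Raji and 6.38 to 7.20 elsewhere (difference -3.14), and the membrane barrier proteins IFITM2 and IFITM3 were at -2.74 and -1.53. The DNA sensor IFI16 read 8.95 and 9.09 against 10.85 to 11.14. Not every member followed: ISG15 and BST2 (tetherin) were higher by 1.42 and 1.47 and the regulator IRF7 by 1.27, while IFIT1, IFIT2 and MX1 did not pass at -0.20, -0.10 and -0.49.

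Adhesion genes were higher for 10 of 26 tested and lower for 2, with a median of 0.50. These are 38.5% and 7.69%, against 16.3% and 17.7% of all genes. The counts were 1 higher and 1 lower without the Raji empty array, 3 and 1 without the Raji miR26a array and 10 and 1 without the Ramos empty array. The leukocyte integrin beta chain ITGB2 read 8.69 and 8.36 in Raji, 6.09 and 6.29 in Namalwa and 4.09 and 4.67 in Ramos (difference 3.24, SE 0.66, limma adjusted p = 0.0125). Its alpha partner ITGAM was higher by 2.63 and its ligand ICAM1 by 1.97. ICAM3, another ligand of these integrins, was off in Raji only at 3.95 and 3.63 against 7.10 to 8.13. Alongside SPARCL1, LOXL2, which crosslinks collagen, was on in Raji only at 7.77 and 7.17 against 3.57 to 4.36.

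Receptors for chemokines and cytokines gave no common direction. ACKR3, a scavenger of the CXCR4 ligand, was on in Raji only at 6.94 and 6.54 against 3.07 to 4.39, opposite to CXCR4. CXCR5 and CCR7, which guide B cells to follicles and T zones, were higher by 1.05 and 1.04, and GPR183 was at -1.23. Of 33 cytokine and receptor genes, 7 were higher and 8 lower, or 21.2% and 24.2%, near the shares of all genes (3 and 5 without the Raji empty array, 4 and 6 without the miR26a array). IL6ST, the shared signal chain of the IL-6 family, was higher by 2.42, IL21R by 1.91 and IL4R by 1.16. TNFRSF21 read 2.99 and 3.98 in Raji against 7.55 to 8.09, and IL7R, at -3.04, was also far apart between Namalwa (7.12 and 6.93) and Ramos (9.07 and 9.58). RGS1, a brake on chemokine signals like RGS13, was on in Raji only at 6.86 and 7.23 against 2.81 to 3.85.

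ANXA2 and S100A10, which form a membrane-bound complex, were both low in Raji. ANXA2 read 5.07 and 5.21 in Raji and 10.58 to 10.79 elsewhere (difference -5.51, SE 0.12, limma adjusted p = 5.49e-06). S100A10 read 3.94 and 4.12 against 7.64 to 8.69 and S100A11 3.22 and 3.03 against 6.81 to 7.47. ANXA6 and ANXA7 were higher by 1.10 and 1.00, and ANXA5 did not pass at -0.06. In glutathione metabolism, the transferases MGST1, GSTK1 and GSTP1 were at -6.54, -3.66 and -2.83. The quinone reductase NQO1 was higher by 1.72, the aldo-keto reductase AKR1C1 by 1.67 and the metallothionein MT2A by 0.90. In the glutathione and detoxification list 33.3% were higher and 20% lower, against 16.3% and 17.7% of all genes. Of the 30 genes of that list 10 were higher and 6 lower (3 and 4 without the Raji empty array, 4 and 4 without the miR26a array).

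Genes of growth and division were counted by list. Of 26 cytosolic ribosomal proteins 0 were called (limma; 0 also at each left-out array), with a median of -0.02. Among 34 genes for G1/S and replication of DNA 5 were higher and 7 lower, and of 35 genes of G2/M and mitosis 2 were higher and 8 lower, with medians of -0.16 in both. These are 14.7% and 20.6%, and 5.71% and 22.9%, against 16.3% and 17.7% of all genes. The counts for G1/S were 0 and 1 without the Raji empty array, 1 and 0 without the Raji miR26a array and 4 and 4 without the Ramos miR26a array. Those for G2/M were 2 and 2 without the Raji empty array and 1 and 2 without the Raji miR26a array. TOP2A and the kinetochore protein NUF2 were at -1.02 and -1.31, HMMR was higher by 1.07 and MKI67 did not pass at 0.26. MYC itself, driven by the translocation, read 10.37 and 10.27 in Raji, 10.81 and 10.89 in Namalwa and 11.33 and 11.60 in Ramos (difference -0.84, limma adjusted p = 0.0428), and its antagonist MXD1 was at -2.27. In glycolysis and hypoxia 8 of 29 genes were higher and 6 lower (1 and 2 without the Raji empty array, 3 and 2 without the miR26a array), 27.6% and 20.7% of the list, among them ALDOC at 1.54 and HIF1A at 0.99, against PFKP at -1.26 and HK2 at -0.92.

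**Figure D4:**
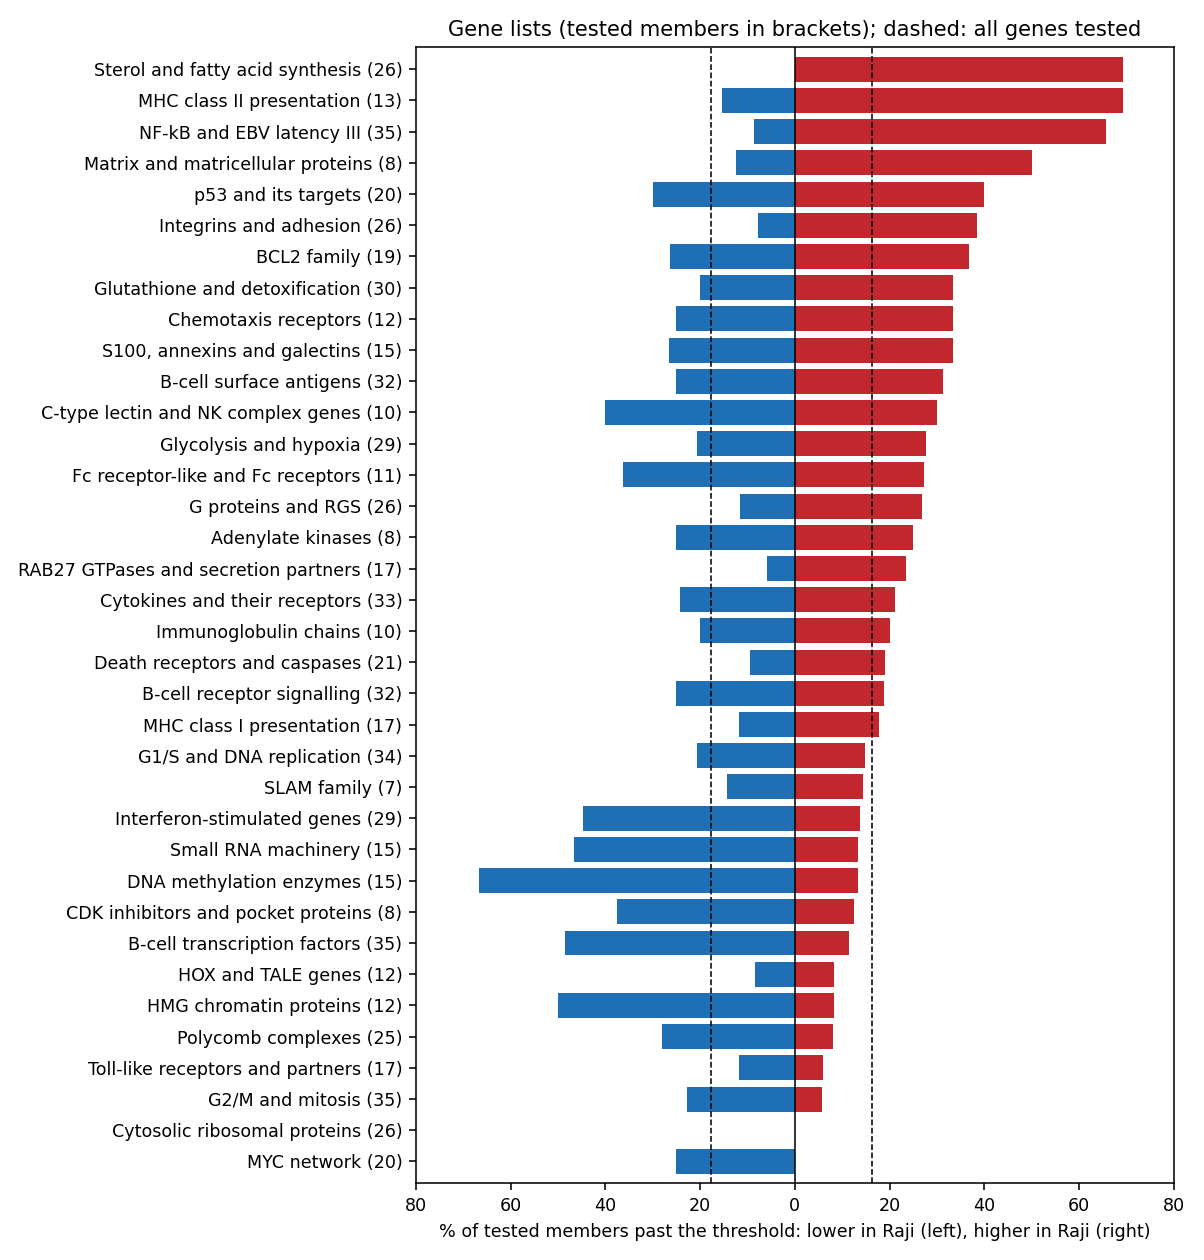
Share of tested genes called higher (red, right) or lower (blue, left) in Raji, in percent, for each list with at least 7 tested genes other than the marker lists, with the number tested in brackets; dashed lines mark the shares over all genes, 16.3% and 17.7%. Of the lists drawn, sterol synthesis, MHC class II and NF-kB extend furthest to the right, and DNA methylation enzymes furthest to the left; lists of few genes move in large steps.

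Neighbouring genes were called together in 38 runs of at least 3 adjacent tested genes that differed in 1 direction by at least 1 log2. Of these runs 11 were higher and 27 lower, with 128 of the 12001 tested genes that have a position. Over all tested genes 5.62% were called higher and 7.59% lower by at least 1 log2. How many runs such shares alone would give was not tested. The longest held 6 genes on chromosome 7, POT1, ZNF800, GCC1, ARF5, SND1 and SND1-IT1, from -1.0 to -2.74. On chromosome 12 a run held adjacent KRAB-type zinc finger genes, repressors of DNA-bound targets. In it ZNF26, ZNF84, ZNF140, ZNF10 and ZNF268 were at -1.61, -4.05, -3.35, -1.37 and -4.48. A run holds by definition only genes called in 1 direction, and genes of this region that were not tested or lie beyond the run are not described. ZNF268 read 2.17 and 1.96 in Raji and 6.16 to 6.81 elsewhere. On chromosome 19 ZNF224, ZNF226 and ZNF227 were at -2.26, -1.70 and -4.71. Over all 326 tested genes with a ZNF symbol, a family chosen after its values were seen, 81 were lower (24.8%), 36 higher (11%), 9 were off in Raji only and 0 on in Raji only, with a median of -0.09. Of all tested genes 17.7% were lower and 16.3% higher.

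Further runs lay on many chromosomes, and some on chromosomes 12, 22 and 5 are described here. Several of the lower runs lay on chromosome 7, where 31.8% of tested genes were lower and 9.72% higher. Several of the higher runs lay on chromosome 5, where 21.8% were higher and 19.2% lower. On chromosome 12 the natural killer complex had CLECL1, CD69 and CLEC2B lower at -1.08, -1.90 and -2.46, and GABARAPL1, KLRC4 and KLRC3 at -1.55, -3.74 and -4.50. KLRC3, a lectin-like receptor of NK cells, read 2.49 and 3.31 in Raji and 7.01 to 7.71 elsewhere, although CLEC7A, in the same complex, was higher by 5.39. On chromosome 22 VPREB1, BMS1P20 and IGLV1-44 lie within the lambda light chain locus and were at -5.22, -4.91 and -3.32. On chromosome 5 CCNG1, NUDCD2 and HMMR were higher by 1.76, 1.45 and 1.07.

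The chromosomes differed in their shares of called genes. On chromosome 20, 33.2% of 358 tested genes were higher and 5.03% lower, on chromosome 21 31.9% and 7.97%, and on chromosome 11 29.8% and 9.29%. The reverse held on chromosome 18, with 8.5% higher and 35.9% lower of 153 genes, on chromosome 7 with 9.72% and 31.8%, and on chromosome 13 with 6.97% and 30.3%. The median difference was 0.26 on chromosome 20 and -0.21 on chromosome 18, so most of these shifts were small per gene. Copy number was not measured, and its part in these shares was not tested.

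**Figure D5:**
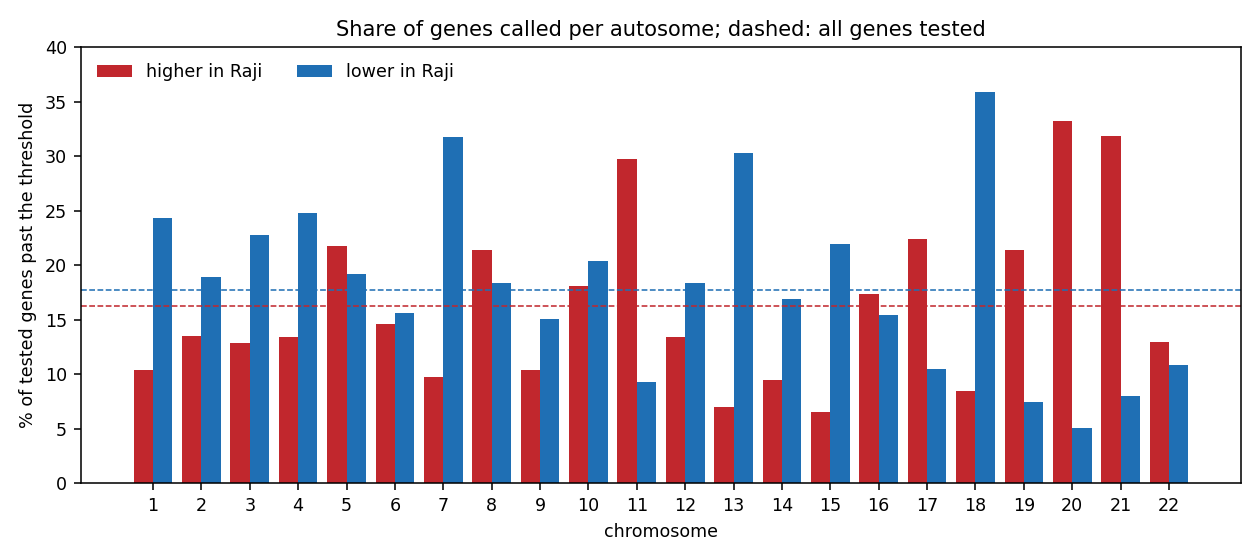
Percent of tested genes on each autosome called higher (red) or lower (blue) in Raji; dashed lines mark the shares over all tested genes. Chromosomes 11, 20 and 21 stand highest in red and chromosomes 7, 13 and 18 in blue.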

How the data were processed

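RNA was hybridised as 6 samples to Affymetrix U133 Plus arrays. The values deposited by the authors are RMA levels on a log2 scale. The design text names RMA in BRB Array Tools, and GCOS and RMA are named per the submitters' processing notes, without versions. A filter on how much probe sets vary is described too, but the deposited table holds all 54675. RMA gives all arrays one distribution, so a shift of all RNAs would not show.

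Of the probe sets, 62 were controls, 41091 had 1 symbol in the platform annotation, 1801 several and 11721 none, and 41037 symbols were updated through a RefSeq table (GRCh38.p14). Each of 19775 genes was read by its brightest probe set, and the 12012 whose mean reached 4.42, the median over probe sets other than controls, were tested. limma 3.58.1 (R 4.3.3; Python 3.11.15 for tables) was fitted to all 6 arrays with the construct as a block, leaving 3 residual degrees of freedom and a prior of 3.2, two-sided, with Benjamini-Hochberg adjustment at 0.05. Levels are compared within a probe set only.

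The comparison, the gene lists and their members were chosen with earlier results of these data known, so the lists are described by counts and medians with no set test. Genes named are the 14 largest differences per direction, the 8 largest per direction among genes at least 2 log2 above the minimum on every array, up to 4 members per list with the largest difference and those needed to state a role, genes of described runs, genes with printed promoters, and light chain and B-cell marker genes; further names were chosen after their values were seen. Y-linked genes and XIST (8 tested) are not described. Simulated data had 200 of 12012 genes changed, over 20 runs. The fit recovered 84.6% of 1 log2 and 98.6% of 2 log2 differences, and 6.05% of its calls were false. The simulated arrays were independent, with no difference between Namalwa and Ramos, and held fewer changed genes than were called in the data. These rates describe the simulation and do not carry over to the real comparison. Alternatives were other blocks, level minimums, probe set rules, scalings, variance models and thresholds, and leaving out each array or line. Protein and UTR sequences were not used here. The number of arrays limits the precision.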

Additional observations from a re-analysis of the deposited data

How the results depend on the processing

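The count of 4084 called genes ran from 1065 to 3864 over the fits that left out 1 array, lowest without the Raji empty array (1547 without the Raji miR26a array). It was 1101 with 1 mean per line, 2161 with no moderation of the spread, 2141 at an adjusted p under 0.01 and 1587 with a difference of at least 1 log2 as well. It was higher with a mean fitted for each line (6370), without the Namalwa line (6204) and over every probe set (7059, over more tests). With no replicate block it was 4335; the labels carry no replicate numbers, and only the construct pairs arrays across lines. The random line block (2959) and the other scalings, minimums and variance settings stayed within 1.5 times. Genes on in Raji only numbered 71 and 12 with a margin of 1 and 3 log2, and 18 by the mean of all probe sets, against 31 (31 to 40 with 1 array left out). Those off in Raji only numbered 180, 53 and 62, against 116 (117 to 132). Of 158 named genes called, 109 kept the call without the Raji empty array, 118 without the Raji miR26a array, 113 with 1 mean per line and 110 with no moderation. By the mean of all probe sets HLA-DQA1 turned to 0.15 and IGHM to -0.07, and SLAMF7, not called at -0.46, turned to 1.54 without the Namalwa line. Of 30 list counts of at least 5, 27 moved by over 1.5 times without the Raji empty array, 23 without the Raji miR26a array, 27 with 1 mean per line, 19 with no moderation, 10 with a mean for each line, 4 with the random line block and 3 with no replicate block; fits with 1 Raji array hold fewer samples, and the cause of the other shifts was not tested. Centring each array on its median moved the median difference of all genes from 0.06 to 0.10. Levels near 4.42 and below are near background and limit every size given there.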
